A study of Mus musculus with 17 samples.

Results

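CC chemokines are small secreted proteins that draw leukocytes along a gradient, and the 10 genes described here are Ccl2, Ccl3, Ccl4, Ccl5, Ccl6, Ccl7, Ccl8, Ccl9, Ccl11 and Ccl20. They were chosen by name: a probe set counted for a gene if the annotation table gave it exactly that symbol, and probe sets with several genes were dropped. All 10 had at least 1 such probe set, among 18193 genes measured, and 12 probe sets in all. Where a gene had more than 1, the probe set with the highest mean stood for it. Total RNA of colonic mucosa was taken from C57BL/6J mice of 2 genotypes on days 0, 2 and 7 of a challenge with 2.5% dextran sodium sulfate (DSS) in the drinking water, which injures the colonic epithelium. CD4cre mice were PPAR γ fl/fl and expressed Cre under the CD4 promoter, so that PPAR γ is lost in CD4+ and CD8+ T cells alike, since both pass through a CD4-positive stage in the thymus. WT mice carried no Cre, and the sources used here do not settle whether their PPAR γ alleles were floxed. Mice of day 0 had no DSS. There were 3 samples in each group but 2 in the group of WT mice on day 7, and each sample is read here as 1 mouse because nothing states whether RNA was pooled.

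The chemokines act through G protein-coupled receptors, and in the inflamed colon they are best known for bringing in monocytes and granulocytes. Ccl2, Ccl7 and Ccl12 are ligands of Ccr2, through which monocytes leave the bone marrow, and Ccl8 is their close relative in the same family of monocyte chemoattractant proteins. Ccl3, Ccl4 and Ccl5 are the macrophage inflammatory proteins and RANTES, with Ccr1 among their receptors, and Ccl6 and Ccl9 are rodent ligands of Ccr1. Ccl11 is eotaxin, a ligand of the eosinophil receptor Ccr3, and Ccl20 is the ligand of Ccr6 that epithelium makes near lymphoid tissue.

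Values were gcRMA signals on the log2 scale and ran from 0.76 to 16.47 over the table. As background served 4.834, the 95th percentile of 126 probe sets of genes that belong to other tissues, and between 38.9% and 40.8% of probe sets lay above it in each sample. All 13 epithelial markers were above it in at least 1 sample, Lgr5 in 10 of 17 samples and the others in all 17. Of 12 measured T cell markers 11, Cd3e, Cd4, Cd8a and Foxp3 among them, were at background in all 17 samples. Pparg itself ranged from 8.28 to 11.21 and differed between the genotypes on no day (adjusted p at least 0.749), in tissue in which other cells also express it. Transcripts of pancreatic enzymes were high in replicate 2 of CD4cre day 0, replicate 1 of CD4cre day 2 and replicate 2 of WT day 2, 3 samples in all (median of at least 12.2, against at most 2.52 elsewhere). The Hox genes mark position along the gut, and a score that subtracts 8 of the lower Hox groups from 9 of groups 9 to 13 was 0.21 in CD4cre day 7 replicate 2 and -1.01 and -1.22 in replicates 1 and 3. It ranged from 0.77 to 1.13 in WT mice on day 2. In a whole tissue more cells of a type and more RNA per cell cannot be told apart.

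The sequence upstream of 5 of the 10 genes could be read, the 250 bases before the annotated start in RefSeq (GRCm38.p6). Those of Ccl8, which changed most evenly among mice, of Ccl9, of Ccl20 and of Ccl3 are shown 5′ to 3′, and their motif matches are in capitals. The motifs searched were TATAAA on the gene's strand and, on both strands, the kappaB consensus, the AP-1 site TGANTCA, the STAT site TTCNNNGAA and the interferon response element, GAAA and GAAA with NN between them.
Ccl8, chr11:82114935-82115184, plus strand: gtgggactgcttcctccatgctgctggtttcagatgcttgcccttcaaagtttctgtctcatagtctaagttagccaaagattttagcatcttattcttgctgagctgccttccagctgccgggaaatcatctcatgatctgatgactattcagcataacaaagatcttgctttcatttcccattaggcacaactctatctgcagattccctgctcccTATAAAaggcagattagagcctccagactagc
Ccl9, chr11:83578637-83578886, minus strand: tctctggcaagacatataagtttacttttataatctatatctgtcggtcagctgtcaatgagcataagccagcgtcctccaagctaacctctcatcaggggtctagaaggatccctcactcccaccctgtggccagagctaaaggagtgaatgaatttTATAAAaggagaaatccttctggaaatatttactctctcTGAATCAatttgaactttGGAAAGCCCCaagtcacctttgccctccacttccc
Ccl20, chr1:83116516-83116765, plus strand: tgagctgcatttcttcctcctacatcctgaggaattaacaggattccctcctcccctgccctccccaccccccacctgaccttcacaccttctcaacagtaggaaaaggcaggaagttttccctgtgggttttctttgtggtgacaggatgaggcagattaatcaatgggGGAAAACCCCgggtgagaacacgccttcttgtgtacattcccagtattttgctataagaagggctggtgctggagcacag
Ccl3, chr11:83649379-83649628, minus strand: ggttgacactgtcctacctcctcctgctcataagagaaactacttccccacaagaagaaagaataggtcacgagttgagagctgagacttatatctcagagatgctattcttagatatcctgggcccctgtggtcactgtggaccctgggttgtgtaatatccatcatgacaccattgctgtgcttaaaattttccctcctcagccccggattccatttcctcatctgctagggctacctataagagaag

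The capitals mark a TATAAA match in Ccl8, whose first base lies at -32 from the start, and a kappaB match in Ccl20 at -80. In Ccl9 they mark a TATAAA match at -92, an AP-1 match at -53 and a kappaB match at -35. No motif of the 5 matched in Ccl3 or Ccl6. Over all 32851 promoter windows of the same length, 7.59% held TATAAA, 7.25% the kappaB consensus and 6.75% the AP-1 site, while the STAT and interferon response elements, which matched in none of the 5 genes, were held by 7.02% and 2.98%. A match here is a string of letters and not a site shown to be used. Ccl2, Ccl4, Ccl5, Ccl7 and Ccl11 are named only.

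On day 7 of DSS, Ccl2, Ccl7 and Ccl8 were higher in CD4cre mice than on day 0, and no member was lower by the test. These 3 of 10 members passed an adjusted p of 0.05 (limma, 6 group means over the 17 samples, Benjamini-Hochberg over 45037 probe sets), where 3.5% of all probe sets rose in that comparison. The log2 fold change was positive in 9 of 10 members, with a median of 1.48, against -0.03 over all probe sets. In WT mice on day 7 no member passed against day 0, where 0.0866% of probe sets did, while 2 members, Ccl5 and Ccl8, had an unadjusted p under 0.05, as 9.57% of all probe sets did. The median of the members was 0.04 there, against -0.03 over all probe sets. Between the genotypes on day 7, Ccl2 was higher in CD4cre mice and passed the test, 1 of 10 where 0.706% of probe sets were higher, and the median log2 fold change was 1.42, against -0.01.

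**Figure D1:**
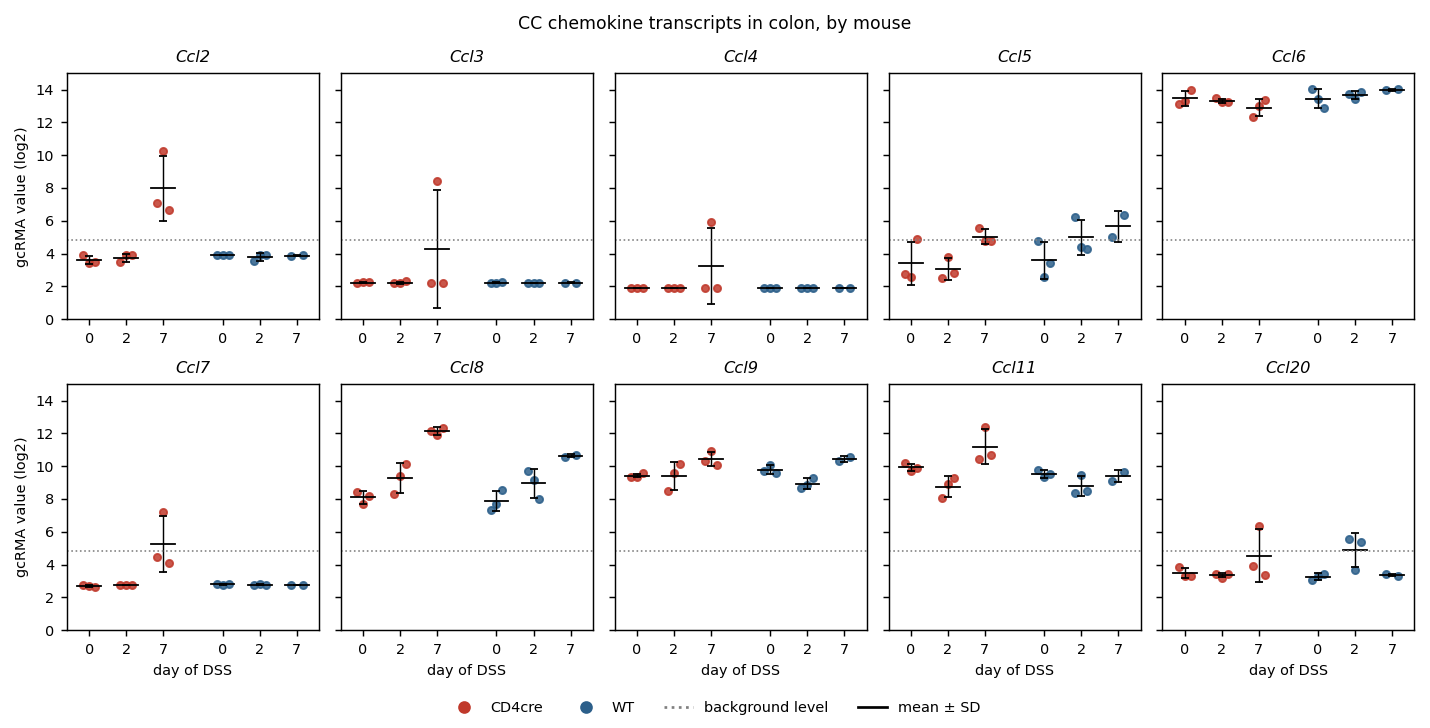
gcRMA values (log2) of the 10 CC chemokines in each mouse by day of DSS, CD4cre mice in red and WT mice in blue, with the mean and SD of each group as black lines and the background level of 4.834 dotted. Ccl2 and Ccl7 leave their floor in CD4cre mice on day 7, Ccl8 lies above its day 0 values in every mouse of day 7, and Ccl3 and Ccl4 stand high in 1 mouse.

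Ccl2, the main monocyte chemoattractant, read 7.06, 10.25 and 6.65 in CD4cre mice on day 7, against 3.90, 3.44 and 3.48 on day 0. In WT mice on day 7 it read 3.84 and 3.90. It was above background in those 3 mice and in none of the other 14, so the folds against day 0 of CD4cre mice and against WT mice on day 7 are both lower bounds, at least 8.9-fold higher in CD4cre mice on day 7. The fitted log2 fold change was 4.38 against day 0 (adjusted p = 0.00373, SE 0.68, n = 3 and 3) and 4.12 against WT mice (adjusted p = 0.0261, SE 0.75, n = 3 and 2). Without CD4cre day 7 replicate 2 the log2 fold change against day 0 was 3.25, still past the threshold. The call against WT mice was lost without either WT mouse of day 7 (adjusted p = 0.122 without replicate 1 and 0.117 without replicate 2), and with the position score as a covariate (adjusted p = 0.0654). It was also lost without the 3 samples with pancreatic transcripts (adjusted p = 0.0908), and the call against day 0 was lost when only the 2 groups compared were fitted (adjusted p = 0.191).

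Ccl7, its neighbour on the chromosome and a ligand of the same receptor, followed the same mice at a lower signal. It read 4.47, 7.21 and 4.08 in CD4cre mice on day 7, against 2.78, 2.70 and 2.65 on day 0. Replicate 2 alone passed the background level, and the other 14 samples lay between 2.65 and 2.80. The fitted log2 fold change was 2.54 (adjusted p = 0.0225, SE 0.57, n = 3 and 3), and as a bound it was at least 1.34-fold higher. Against WT mice on day 7, where it read 2.76 and 2.78, the log2 fold change of 2.48 did not pass (adjusted p = 0.0821, SE 0.64). The call against day 0 was lost without any 1 of the 3 mice of day 0 (adjusted p between 0.0616 and 0.0722) without the samples with pancreatic transcripts (adjusted p = 0.128), and when values were raised to the background level (adjusted p = 0.58). Without CD4cre day 7 replicate 2 it kept its call with a log2 fold change of 1.56.

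Ccl8 was the member with the most even change. It read 12.14, 11.90 and 12.36 in CD4cre mice on day 7, against 8.41, 7.68 and 8.19 on day 0, and the groups lay far apart. The log2 fold change was 4.04, or 16.4-fold (adjusted p = 0.0013, SE 0.50, n = 3 and 3), and this call held in every alternative run, leaving out each mouse included. In WT mice it read 10.58 and 10.71 on day 7, against 7.34, 7.71 and 8.54 on day 0, again without overlap. That log2 fold change of 2.78 (adjusted p = 0.138, SE 0.56, n = 2 and 3) missed the threshold, with a 95% interval of 1.56 to 4.0. All 3 CD4cre mice lay above both WT mice on day 7, by a log2 fold change of 1.49 (adjusted p = 0.22, SE 0.56), and the difference between the genotypes in the DSS effect was 1.26 (95% interval -0.38 to 2.9, adjusted p = 0.688).

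Ccl11, eotaxin, was well above background in every mouse and lowest on day 2. It read 10.46, 12.41 and 10.70 in CD4cre mice on day 7, against 8.08, 8.90 and 9.30 on day 2 and 10.17, 9.70 and 9.91 on day 0. Day 7 was higher than day 2 by 2.43 on the log2 scale (adjusted p = 0.0148, SE 0.48, n = 3 and 3), while the difference from day 0 of 1.26 did not pass (adjusted p = 0.151). The call against day 2 was lost with array quality weights (adjusted p = 0.0565), without the samples with pancreatic transcripts (adjusted p = 0.0631) and in a fit of only these groups (adjusted p = 0.281). WT mice read 9.12 and 9.66 on day 7, below all 3 CD4cre mice, and the genotypes differed by 1.80 (adjusted p = 0.13, SE 0.54). Of 5 measured eosinophil markers, Prg2, Epx, Il5ra and Alox15 were at background in all 17 samples. Siglecf was above it in 5 samples and did not pass in CD4cre mice on day 7 against day 0 (log2 fold change -0.70, adjusted p = 0.244).

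Ccl3 and Ccl4, which carry the names macrophage inflammatory protein 1 alpha and beta, were at background in all samples but 1. In CD4cre day 7 replicate 2 Ccl3 read 8.44, and its next highest value was 2.31. Ccl4 read 5.91 in that mouse, against a next highest value of 1.91. The fitted log2 fold changes against day 0 of 2.07 for Ccl3 (adjusted p = 0.301, SE 1.2) and 1.33 for Ccl4 (adjusted p = 0.302, SE 0.78) rest on that mouse, and without it they were -0.0029 and -0.0075. The RefSeq models of these genes overlap on chromosome 11.

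Ccl20 was also highest in that mouse, at 6.37, and read 3.88 and 3.36 in replicates 1 and 3. It read 5.57, 3.69 and 5.39 in WT mice on day 2, against 3.03, 3.33 and 3.44 on day 0, with 2 of these 6 mice above background. The groups did not overlap, and the log2 fold change of 1.62 missed the threshold (adjusted p = 0.434, SE 0.66). CD4cre mice on day 2 read 3.42, 3.20 and 3.42, below all 3 WT mice, a difference of -1.54 (adjusted p = 0.64, SE 0.66). With array quality weights, which give the arrays unequal say, the WT rise passed (adjusted p = 0.00137).

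**Figure D2:**
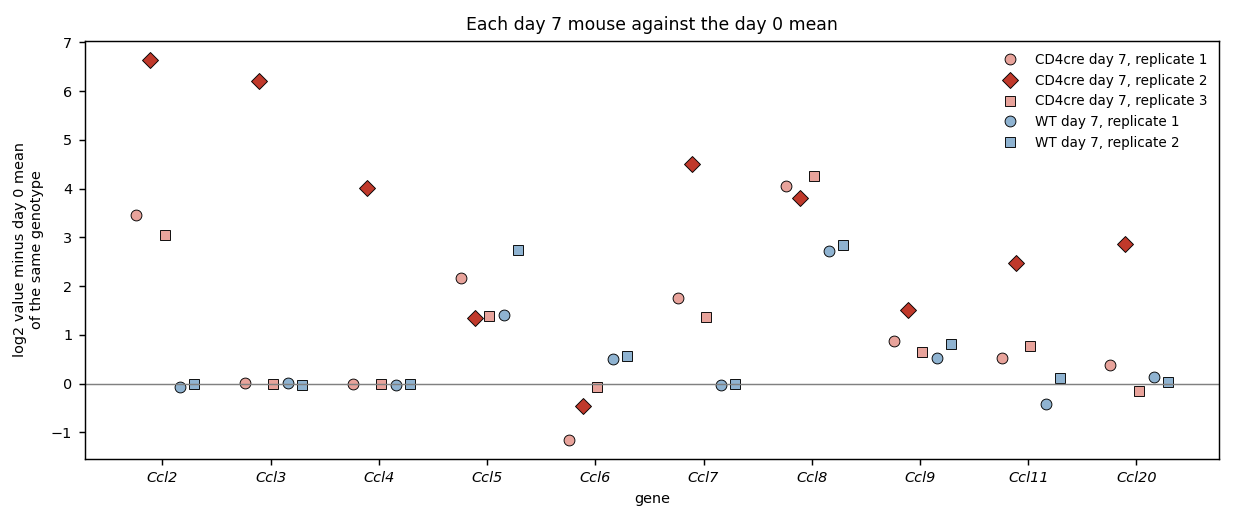
Log2 value of each mouse of day 7 minus the day 0 mean of its genotype, for the 10 genes, with CD4cre mice in red and WT mice in blue. CD4cre replicate 2 (diamond) is highest for 7 genes, Ccl2, Ccl3, Ccl4, Ccl7, Ccl9, Ccl11 and Ccl20, while the 3 CD4cre mice lie close together for Ccl8.

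Ccl5, made by T cells and NK cells among others, lay about the background level and varied within groups. It read 5.56, 4.75 and 4.80 in CD4cre mice on day 7, against 2.78, 2.54 and 4.88 on day 0, so the groups overlapped. In WT mice it read 4.99 and 6.33 on day 7, against 4.79, 2.57 and 3.40 on day 0, without overlap. The log2 fold changes were 1.63 in CD4cre mice (adjusted p = 0.224, SE 0.76) and 2.07 in WT mice (adjusted p = 0.488, SE 0.85), and neither passed.

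Ccl6 and Ccl9, neighbouring genes for ligands of Ccr1, were high in every mouse whatever the day. Ccl6 had the highest signal of the 10 probe sets, between 12.32 and 14.05 over the 17 samples. It was the 1 member with a negative log2 fold change in CD4cre mice on day 7, reading 12.32, 13.01 and 13.40, against 13.14, 13.29 and 13.99 on day 0 (log2 fold change -0.56, SE 0.32, adjusted p = 0.294). WT mice on day 7 read 13.96 and 14.01, above all 3 CD4cre mice, and the difference of -1.08 did not pass (adjusted p = 0.167, SE 0.36). A second Ccl6 probe set gave means of 11.50 in CD4cre and 12.83 in WT mice on day 7, the same order.

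Ccl9 read 10.29, 10.94 and 10.08 in CD4cre mice on day 7, against 9.37, 9.36 and 9.56 on day 0, without overlap (log2 fold change 1.01, SE 0.35, adjusted p = 0.118). In WT mice it read 10.32 and 10.59 on day 7, against 8.69, 8.82 and 9.30 on day 2 (log2 fold change 1.52, SE 0.40, adjusted p = 0.165). The genotypes were close on day 7, with a difference of -0.02 (95% interval -0.88 to 0.85). Its second probe set gave a smaller difference from day 0 in CD4cre mice, 0.24 on the log2 scale, and those groups overlapped.

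**Figure D3:**
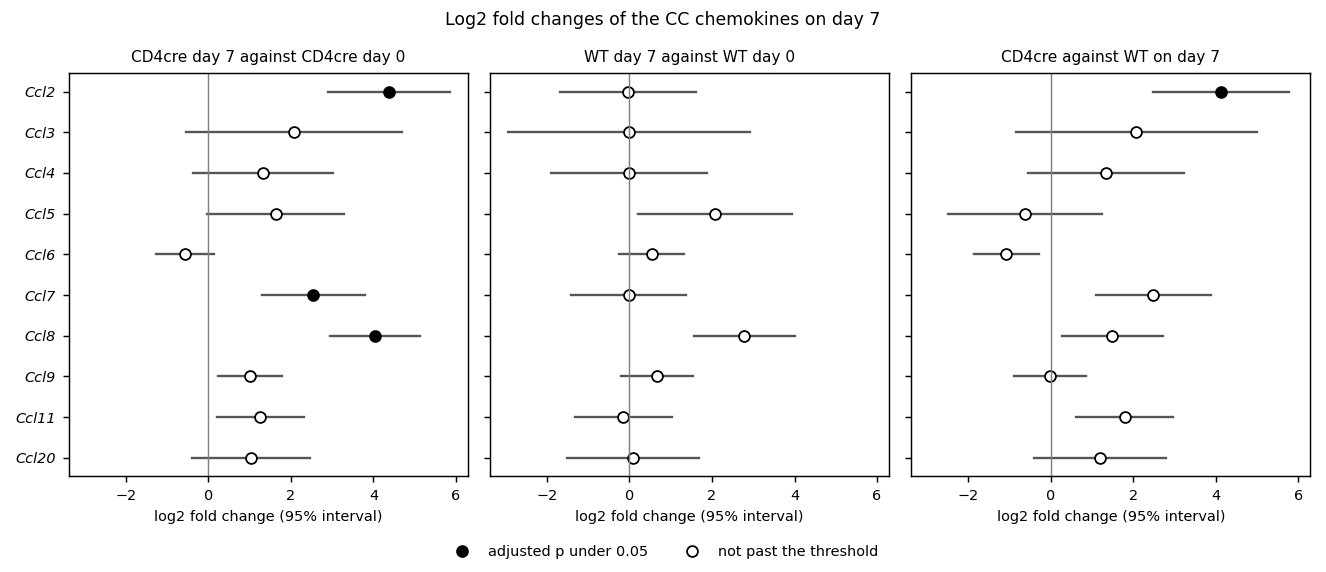
Log2 fold changes of the 10 CC chemokines with 95% intervals from limma for day 7 against day 0 in CD4cre mice (left) and WT mice (middle), and for CD4cre against WT mice on day 7 (right). Filled points passed an adjusted p of 0.05: Ccl2, Ccl7 and Ccl8 at left, none in the middle and Ccl2 at right.

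The rise of Ccl2 and Ccl7 in CD4cre mice came between day 2 and day 7. In CD4cre mice 4 of 10 members, Ccl2, Ccl7, Ccl8 and Ccl11, were higher on day 7 than on day 2, where 2.49% of probe sets rose. Ccl2 gave a log2 fold change of 4.23 (adjusted p = 0.00502, SE 0.68), Ccl7 one of 2.49 (adjusted p = 0.0281, SE 0.57) and Ccl8 one of 2.86 (adjusted p = 0.00792, SE 0.50). The Ccl7 call was lost without any 1 of the 3 mice of day 2 (adjusted p between 0.0593 and 0.0867). It was also lost with values raised to the background level (adjusted p = 0.599), without the samples with pancreatic transcripts (0.123) and in a fit of only these groups (0.412). On day 2 itself no member passed against day 0, in CD4cre mice (0.0178% of probe sets called) or in WT mice (0.449%), with 2 members at an unadjusted p under 0.05 in each, where 6.62% of probe sets were in CD4cre mice and 9.6% in WT mice. The mean of Ccl8 on day 2 lay between those of days 0 and 7 in both genotypes, with mice at 8.29, 9.40 and 10.15 in CD4cre mice and 9.73, 9.15 and 7.98 in WT mice. Its log2 fold changes against day 0 were 1.18 in CD4cre mice (adjusted p = 0.706, SE 0.50) and 1.09 in WT mice (adjusted p = 0.523, SE 0.50). Ccl11 was lower on day 2 than on day 0 in all 3 CD4cre mice, by 1.17 on the log2 scale, and this did not pass (adjusted p = 0.685).

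In WT mice no member passed between day 7 and day 2 (0.244% of probe sets called, and 2 members and 10.1% of probe sets at an unadjusted p under 0.05). The genotypes differed in no member on day 0 (0.00666% called, and 0 members and 4.52% of probe sets at an unadjusted p under 0.05) or on day 2 (0.0422% called, and 2 members, Ccl5 and Ccl20, and 7.33% of probe sets at that p). The test of whether the DSS effect itself differed between the genotypes called no member on day 7, where 0.14% of probe sets passed. An unadjusted p under 0.05 was found there for 3 members, Ccl2, Ccl6 and Ccl7, and for 9.83% of probe sets. On day 2 it called no member either, where 0.00222% passed, and 0 members and 4.28% of probe sets had an unadjusted p under 0.05. For Ccl2 that difference of DSS effects was 4.42 on day 7 (SE 1.01, 95% interval 2.21 to 6.63, adjusted p = 0.118). It passed for Ccl2 and Ccl7 without CD4cre day 7 replicate 2, and for Ccl2 without replicate 3.

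The order of the 6 group means differed among the genes. CD4cre mice on day 7 stood first for Ccl2, Ccl3, Ccl4, Ccl7, Ccl8 and Ccl11, with no overlap with the next group for Ccl2, Ccl7, Ccl8 and Ccl11. For Ccl8 the next groups in order, WT mice on day 7 and CD4cre mice on day 2, did not overlap either, and the ranges of the groups below them did. WT mice on day 7 stood first for Ccl5, Ccl6 and Ccl9, and WT mice on day 2 for Ccl20. Groups that do not overlap are common with so few mice: in CD4cre mice on day 7 against day 0, 8.63% of all probe sets lay wholly higher, against 5 of 10 members. Wholly lower were 36.6%, against 0 members. In WT mice on day 7 against day 0, 10.1% lay wholly higher and 35.8% wholly lower, against 3 and 2 members. For CD4cre against WT mice on day 7 these were 10.3% and 19.6%, against 4 and 1 members. On day 2, 6.59% lay wholly higher than day 0 in WT mice, and 6.38% wholly lower in CD4cre than in WT mice.

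Of the 10 genes, 9 lie in 2 clusters. On chromosome 11 (GRCm38.p6) Ccl2, Ccl7, Ccl11, Ccl12 and Ccl8 lie in that order within 81.2 kb, and Ccl5, Ccl9, Ccl6, Ccl3 and Ccl4 lie within 138.9 kb, 1409 kb further on. In CD4cre mice on day 7 against day 0, 4 of the 5 genes of the first cluster passed and rose, all but Ccl11. In that comparison 3.5% of all probe sets rose. Ccl12 is not 1 of the 10 genes, and Ccl7 and Ccl12 were above background in CD4cre day 7 replicate 2 alone. Both lost the call when values were raised to the background level (adjusted p = 0.58 each). The 5 log2 fold changes of the first cluster ran from 1.26 to 4.38. None of the 5 genes of the second cluster passed, with log2 fold changes of -0.56 to 2.07. Ccl20 lies apart, on chromosome 1. The difference between the clusters was not tested.

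Across the 17 samples Ccl2 and Ccl7 varied together most evenly (Pearson r = 0.99, and 0.99 without CD4cre day 7 replicate 2). Ccl3 and Ccl4 had r = 1.00 over 17 samples and 0.45 over the 16 without that mouse, and Ccl2 and Ccl3 had 0.82 and 0.08. These correlations are a description: the samples share groups. Among 10333 genes with a group mean above background, the 3 nearest to Ccl2 were Chil3, a macrophage lectin, Hgf, hepatocyte growth factor, and Cxcl2, a neutrophil chemokine, each with r = 0.99. Nearest to Ccl7 were Clec4d, Cemip and Cxcl5, with r of 1.00, 0.99 and 0.99. Without that mouse r ran from 0.98 to 0.99 for the genes nearest to Ccl2 and to Ccl7. Ccl7 and Clec4d were each above background in 1 of 17 samples, so most of the values compared lie at the floor. Nearest to Ccl8 were Fcgr2b, an inhibitory Fc receptor, Wfdc17 and Mpeg1, the macrophage perforin, with r between 0.93 and 0.95. For Ccl11 they were Mllt11, Foxf1, a factor of gut mesenchyme, and Kcnj8, with r of 0.91, and 0.80 to 0.81 without that mouse.

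Of the other CC chemokines listed, 8 of 11 were measured and 4 were above background in any sample. Of these 8, Ccl12, a mouse ligand of Ccr2, rose in CD4cre mice on day 7 and the others did not pass. It read 4.72, 6.56 and 4.53 in CD4cre mice on day 7, against 3.14, 2.36 and 2.82 on day 0 (log2 fold change 2.49, SE 0.46, adjusted p = 0.00913) and 2.32 and 2.81 in WT mice on day 7 (log2 fold change 2.70, SE 0.52, adjusted p = 0.0294). Replicate 2 alone was above background, and as a bound it was at least 1.35-fold higher in both comparisons. The call against WT mice was lost without either WT mouse of day 7 and with position score as a covariate, and both calls were lost without the samples with pancreatic transcripts and with values raised to the background level.

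Of 10 measured CC chemokine receptors, 3 were above background in any sample, and 2 of them, Ccr1 and Ccr2, rose in CD4cre mice on day 7. The list's median was 0.10, against -0.03 over all probe sets. Ccr1 read 7.66, 8.94 and 7.66 in CD4cre mice on day 7, against 6.00, 5.95 and 5.95 on day 0 (log2 fold change 2.12, SE 0.29, adjusted p = 0.00206). It was also higher than in WT mice on day 7, at 6.18 and 6.41 (log2 fold change 1.79, SE 0.32, adjusted p = 0.0249), a call lost without either WT mouse of day 7, without the samples with pancreatic transcripts (adjusted p = 0.0765) and with the position score as a covariate (adjusted p = 0.0706). Ccr2, the receptor for Ccl2, Ccl7 and Ccl12, read 7.44, 7.94 and 5.89 in CD4cre mice on day 7, against 3.54, 3.67 and 3.84 on day 0, at least 4.78-fold higher (adjusted p = 0.00337). A second probe set of each receptor gave 1.42 for Ccr1 (adjusted p = 0.147) and 0.88 for Ccr2 (adjusted p = 0.103) against day 0, and neither passed. Nor did they against day 2, with 1.48 for Ccr1 (adjusted p = 0.148) and 0.89 for Ccr2 (adjusted p = 0.108). That Ccr1 probe set did not pass against WT mice on day 7 either (log2 fold change 1.43, adjusted p = 0.281). Against WT mice on day 7, at 4.80 and 6.30, Ccr2 was not called and its range overlapped (log2 fold change 1.54). Ccr7 was above background in CD4cre day 7 replicate 2, at 5.41, and in WT day 2 replicate 2, at 4.90, and passed in no comparison.

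**Figure D4:**
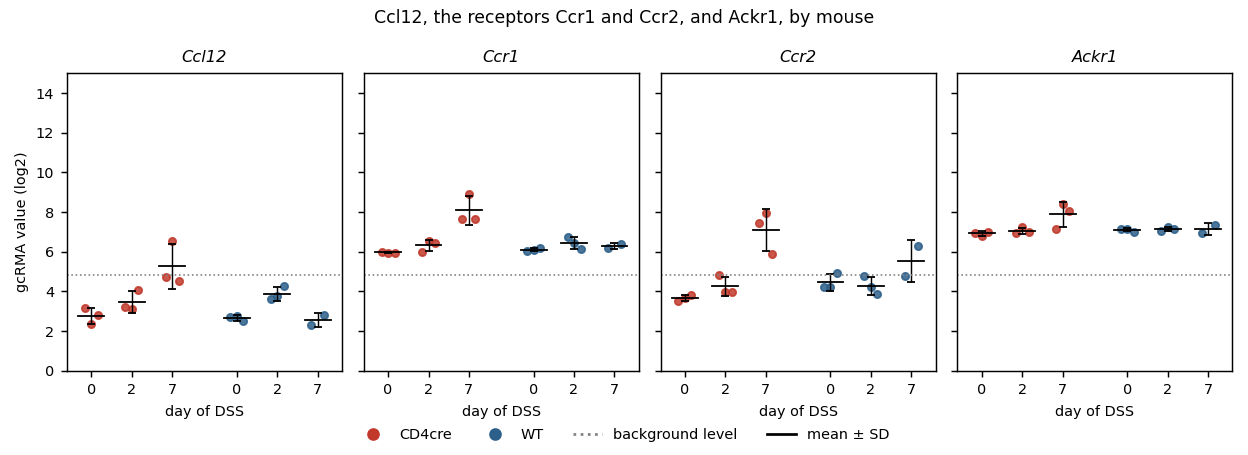
gcRMA values (log2) of Ccl12, Ccr1, Ccr2 and Ackr1 in each mouse by day of DSS, CD4cre mice in red and WT mice in blue, with group means and SD in black and the background level dotted. Ccr1 lies between 7.66 and 8.94 in CD4cre mice on day 7 and at most at 6.77 in the other mice.

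Among 3 atypical and decoy receptors, which bind chemokines without G protein signalling, Ackr1 of venular endothelium rose in CD4cre mice on day 7, at 7.17, 8.43 and 8.04, against 6.95, 6.80 and 7.01 on day 0 (log2 fold change 0.96, SE 0.24, adjusted p = 0.0347). Of 14 measured genes of receptor signalling, 3 rose in that comparison and none fell, where 3.5% of all probe sets rose, and their median was 0.56, against -0.03 over all probe sets. They were Arrb2, a beta-arrestin (log2 fold change 1.73, adjusted p = 0.00391), Gnb1 (0.52, adjusted p = 0.0291) and Gnai2 (0.51, adjusted p = 0.0446), which encode G protein subunits. When 1 mouse was left out at a time, the call was lost in 5 of 17 fits for Ackr1, 5 for Gnb1 and 14 for Gnai2, and in none for Arrb2. Without the samples with pancreatic transcripts Ackr1, Gnb1 and Gnai2 lost their calls. Against day 2, Ccl12, Ccr1, Ccr2, Arrb2 and Gnb1 rose in CD4cre mice, and 14 of 17 such fits lost the call for Ccl12 and for Gnb1. In WT mice Rgs2, a regulator of G protein signalling, fell by 1.02 on day 2 against day 0 (adjusted p = 0.0348) and was higher by 1.49 on day 7 than on day 2 (adjusted p = 0.0117), a call lost with the position score as a covariate (adjusted p = 0.399). The call on day 2 was lost in 9 of 17 fits that left out 1 mouse, without the samples with pancreatic transcripts (adjusted p = 0.0882) and with the position score as a covariate, which gave -0.63 (adjusted p = 0.612).

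Markers of macrophages, like Ccl2, Ccl7 and Ccl8, were higher in CD4cre mice on day 7 than on day 0. All 18 measured monocyte and macrophage markers rose in CD4cre mice on day 7 against day 0, where 3.5% of all probe sets rose. Their mean log2 value ranged from 8.97 to 10.14 on day 7, 7.41 to 8.10 on day 2 and 7.16 to 7.34 on day 0. In WT mice it ranged from 8.07 to 8.10 on day 7, 7.73 to 8.26 on day 2 and 7.21 to 7.44 on day 0. On day 2 and in WT mice on day 7 this mean lay above day 0, a difference that was not tested. Ccl2 and Ccl7 were at background in these groups, where a smaller change cannot be read. The mean of Ccl8 lay above day 0 in all of them. It was 10.65 in WT mice on day 7, and 9.28 in CD4cre and 8.96 in WT mice on day 2. On day 0 it was 8.09 in CD4cre and 7.86 in WT mice. In CD4cre day 7 replicate 2, with the highest Ccl2 and the lowest Ccl8 of its group, the marker mean was 10.14. It was 8.97 in replicate 1 and 9.06 in replicate 3, which had the lowest Ccl2 of that group. Of 13 neutrophil markers S100a8, S100a9 and Clec4d rose and 8, Mpo, Elane, Ngp and Cxcr2 among them, were at background in all samples. Of 11 fibroblast and matrix markers 6 rose, and 1 of 8 endothelial markers did. Of 8 dendritic cell markers 2 rose, Itgax and Batf3, and Batf3 was at background in all samples. Of 12 T cell markers 1 rose, Thy1, which is also counted among the fibroblast and matrix markers. Of 13 epithelial markers 0 rose and 1 fell, and no eosinophil, mast cell or B cell marker passed. What part these cells have in the chemokine values was not tested.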

How the data were processed

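RNA of colonic mucosa was measured on Affymetrix mouse genome arrays. Per the labels and methods, affy and gcRMA in R 2.9.0 were used by the authors (background adjustment, normalization across arrays, summary per probe set), and the deposited values are on the log2 scale. Of 45101 probe sets 64 are controls, and 45037 were tested without a filter. Of these, 34945 carry 1 gene symbol, 932 several and 9160 none. The arrays come without depth, so their number limits the precision.

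A model of 6 group means over the 17 samples was fitted in limma 3.58.1 (R 4.3.3, eBayes, 11 residual and 0.888 prior degrees of freedom) for 11 comparisons. A two-sided adjusted p under 0.05 was a call. P-values measure only the spread between these samples. The fit was tested on simulated data. Alternatives changed the normalization, weights, moderation, filter, probe set, threshold and samples, or added the position score or a replicate block. Values at background give lower bounds, computed against 4.834. All 10 members were named, with the called genes of 4 lists of ligands, receptors and signalling, the receptors above background and the 3 genes most correlated with each called member. The members, lists and alternatives were chosen with earlier results of these data known. Promoter windows are RefSeq sequences (GRCm38.p6), 5 of 10 members matched.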

Additional observations from a re-analysis of the deposited data

How the results depend on the processing

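The count of members called in CD4cre mice on day 7 was 3 against day 0 and 4 against day 2, and fell to 1 and 0 when only the groups compared were fitted, which leaves fewer samples to set the spread. Leaving out each mouse in turn gave 2 to 4 and 3 to 4. Without the 3 samples with pancreatic transcripts both counts were 2, and at an adjusted p under 0.01 the count against day 2 was 2. Between the genotypes on day 7 the count of 1 became 0 at an adjusted p under 0.01, in a fit of only these groups, with values raised to the background level, without the samples with pancreatic transcripts and with position score as a covariate. It was 2 at an adjusted p under 0.1. It was 0 to 2 when 1 mouse was left out, 0 without WT day 7 replicate 1 or 2 and 2 without CD4cre day 7 replicate 2 or 3. The difference of DSS effects on day 7 then called 0 to 2. Array quality weights gave 2 there and between the genotypes on day 7 and on day 0, and, in WT mice, 4 on day 2 against day 0, 1 on day 7 against day 0 and 2 on day 7 against day 2. The causes were not tested. Leaving out CD4cre day 7 replicate 2 together with the pancreatic samples, an alternative chosen after seeing the data, gave 2 on day 7 between the genotypes and for the difference of DSS effects, and 1 each in WT mice on day 2 against day 0 and on day 7 against day 2 and between the genotypes on day 2. Against day 0 in CD4cre mice, leaving out each mouse gave -0.0029 to 3.11 for Ccl3 and -0.0075 to 2.00 for Ccl4, lowest and below 0 without CD4cre day 7 replicate 2, and Ccl4 to -0.0074 in that joint setting. Of 1494 refits of single genes, 1319 kept their direction and side of the threshold. The correlation of deviations between same-numbered samples ran from -0.52 to 0.47 and exceeded 0.1 in 15 of 40 pairs. Pairs with different numbers were not computed, so whether same-numbered samples deviate together is not settled. With the replicate number as a block the counts stayed at 3, 4 and 1. In that fit Ccl12 lost its calls against WT mice on day 7 and against day 2, and Gnai2 lost its call against day 0. With a background level of 3.54, from a shorter list chosen after seeing the data, the bound for Ccl7 was at least 3.28-fold in place of 1.34-fold.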
